A study of Mus musculus with 9 samples.

Results

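The genes described are 10 immediate early genes, chosen by name, with earlier results of these data known, from the table of 21965 gene identifiers. They are Fos, Fosb, Jun, Junb, Jund, Egr1, Nr4a1, Klf6, Dusp1 and Zfp36. Their RNA was measured in 9 spleen libraries of mice aged 16 weeks, in 3 groups of 3 libraries: females and males of BWF1, and females of BALB/c. BWF1 is the F1 cross of NZB and NZW, and its females are described in the title as lupus-prone, the other groups as not. The labels name no treatment and no engineered allele in any group. The 2 comparisons with BALB/c females contrast strains, and BWF1 males against BALB/c females contrast strain and sex together, so those parts cannot be told apart. The labels do not say how the 3 animals of a group relate to each other, so p-values measure the spread between these libraries.

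The labels disagree on the cells sequenced. The title and the design text name whole splenocytes, but each sample is labelled as macrophages, obtained by FACS for CD11b and F4/80 after a collagenase digest. Itgam, which encodes CD11b, had 0, 1 and 0 counts in the BWF1 females, 3, 2 and 32 in the males and 7, 10 and 5 in the BALB/c females. Adgre1, which encodes F4/80, stood at 5.26 to 20.8 CPM over the 9 libraries. CPM are counts scaled to a common depth with TMM factors, which correct for a few genes taking up much of a library. The gene totals behind them were low, from 458608 to 4305003 counts, of which Lars2 held 42.3% to 76.6%. Of all alignments, 2.82%, 2.71% and 2.14% fell in genes in BALB/c females 1 to 3, and 1.29% to 2.05% in the BWF1 libraries. This share did not overlap between the strains and cannot be told apart from strain. The 10 early genes had 11 to 780 counts each per library, and all 10 passed the filter on low counts.

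Immediate early genes are transcribed within minutes of a stimulus, without new protein synthesis, because their activators are already present and are switched on by phosphorylation. Fos and Fosb pair with Jun, Junb or Jund to form the AP-1 transcription factors, while Egr1, Nr4a1 and Klf6 encode DNA-binding factors of other families. Dusp1 and Zfp36 are induced with them and act as brakes. Dusp1 removes phosphate from MAP kinases, and Zfp36 (tristetraprolin) binds AU-rich stretches in the 3′ UTRs of mRNAs and promotes their decay. In lymphoid tissue these genes follow antigen receptor, cytokine and stress signals, and they are also known to rise when tissue is taken apart for cell isolation.

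The promoters of 6 of the genes are shown because they differ in one class of element, the cyclic AMP response element (CRE). The choice does not set them apart in level: 9 of the 10 genes were lower in BWF1 than in BALB/c females, among them Fosb, which holds a core and is not shown, and Zfp36, which holds no match. The sequences are the 250 bases before the RefSeq transcription start on GRCm38.p6, the patch release of mm10, read 5′ to 3′ on the gene's strand. Capitals mark the CRE core TGACG or its reverse complement CGTCA, the full CRE TGACGTCA, in which cores of both strands overlap, or the variant TGACATCA. The variant was added to the search after these sequences were seen.
Fos (chr12:85473640-85473889, plus strand): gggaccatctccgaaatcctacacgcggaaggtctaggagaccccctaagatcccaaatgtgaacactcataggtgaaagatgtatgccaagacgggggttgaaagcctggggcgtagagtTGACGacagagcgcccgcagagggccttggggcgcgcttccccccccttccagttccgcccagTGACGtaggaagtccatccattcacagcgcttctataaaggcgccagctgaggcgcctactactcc
Junb (chr8:84978749-84978998, minus strand): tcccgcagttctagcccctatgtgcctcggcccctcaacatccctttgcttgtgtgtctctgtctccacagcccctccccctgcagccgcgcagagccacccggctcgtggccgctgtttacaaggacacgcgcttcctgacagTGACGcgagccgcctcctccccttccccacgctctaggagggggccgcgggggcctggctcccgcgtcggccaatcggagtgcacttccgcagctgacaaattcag
Nr4a1 (chr15:101266596-101266845, plus strand): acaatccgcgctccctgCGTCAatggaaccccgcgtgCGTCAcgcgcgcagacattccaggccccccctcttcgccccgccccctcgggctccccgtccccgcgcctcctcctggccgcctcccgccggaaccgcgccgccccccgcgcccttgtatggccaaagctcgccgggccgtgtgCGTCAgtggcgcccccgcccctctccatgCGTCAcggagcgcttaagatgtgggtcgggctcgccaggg
Dusp1 (chr17:26508473-26508722, minus strand): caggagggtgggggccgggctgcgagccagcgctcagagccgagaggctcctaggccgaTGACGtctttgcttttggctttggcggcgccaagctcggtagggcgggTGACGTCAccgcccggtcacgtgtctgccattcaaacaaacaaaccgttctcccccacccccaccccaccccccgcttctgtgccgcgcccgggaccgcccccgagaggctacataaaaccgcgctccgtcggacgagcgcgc
Jun (chr4:95052223-95052472, minus strand): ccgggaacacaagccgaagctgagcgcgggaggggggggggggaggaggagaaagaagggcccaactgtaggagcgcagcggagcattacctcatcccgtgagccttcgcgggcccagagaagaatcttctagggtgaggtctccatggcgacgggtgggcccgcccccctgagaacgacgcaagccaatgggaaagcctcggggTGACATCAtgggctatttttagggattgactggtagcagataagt
Klf6 (chr13:5861239-5861488, plus strand): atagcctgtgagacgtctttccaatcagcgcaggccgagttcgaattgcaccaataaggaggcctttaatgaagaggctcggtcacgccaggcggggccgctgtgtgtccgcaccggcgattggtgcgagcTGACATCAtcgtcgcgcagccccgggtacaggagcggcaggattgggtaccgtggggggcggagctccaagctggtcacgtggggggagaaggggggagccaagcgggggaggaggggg

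The RefSeq table held a window for 9 of the 10 genes, all but Egr1, which was therefore not searched. A CRE core, searched on both strands, was found in 5 of the 9 (Fos, Fosb, Junb, Nr4a1 and Dusp1), against 17.8% of all 32851 promoter windows of this length. Nr4a1 held 4 matches, which began 233, 213, 69 and 40 bases before its start. Fos held 2, at 129 and 66 bases. Dusp1 alone held the full CRE, at 143 bases, a match found in 1.55% of windows. Jun and Klf6 held no core but each held the variant TGACATCA, at 45 and 119 bases before the start, against 2.93% of windows. The CArG box, the binding motif of serum response factor, was found in Zfp36 only (1.47% of windows). The AP-1 motif TGANTCA was found in 0 of the 9 (6.75% of windows). These matches describe letters in a fixed window and say nothing about binding. For Jund the RefSeq start lay at 70697739 on chromosome 8, upstream of the GENCODE M21 gene start at 70698949, so its window depends on the annotation. The RefSeq starts of Nr4a1 (101266846), Dusp1 (26508472) and Zfp36 (28379228) lay inside their GENCODE genes. On their own strands, those genes start at 101254269, 26562128 and 28380253, so these windows depend on the annotation too.

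Most of the genes were short, with a median span of 4698 bases against 26680 for all tested genes in GENCODE M21. Dusp1 was an exception at 56539 bases in that annotation, and Nr4a1 spanned 20527. Their RefSeq starts (26508472 and 101266846) lay inside these spans, whose far ends are at 26505590 and 101274795. Counted from the RefSeq starts, both genes are shorter, so these lengths depend on the annotation. The motif TATTTAT, the core of the AU-rich elements that Zfp36 protein binds, was found in the longest annotated 3′ UTR of 7 of the 10, against 31.8% of 7706 tested genes with such a UTR. Dusp1 and Zfp36 held 3 copies each. Fos and Klf6 held 2, Fosb, Jun and Jund 1, and Junb, Egr1 and Nr4a1 none.

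The early genes were lower in BWF1 than in BALB/c females. By edgeR, 9 of the 10 were called lower (adjusted p under 0.05 over all 7719 tested genes), against 2.03% of all tested genes called lower in that comparison. Such shares are given for scale and are not a test, because the 10 genes were chosen with earlier results of these data known. Jund was not called. The median log2 fold change of the 10 was −1.25, against 0.00 for all tested genes. In BWF1 females against BWF1 males only Fos was called, lower in females, where 1.23% of all tested genes were called lower. In BWF1 males against BALB/c females, 4 were called lower (Jun, Klf6, Dusp1 and Zfp36), against 1.85% of tested genes. The BWF1 libraries all lay below the BALB/c libraries for 8 of the 10 genes in females and for 8 in males, where 10.9% and 11.9% of all tested genes did. BWF1 females all lay below BWF1 males for 2, Fos and Klf6, where 9.68% of tested genes did. Without BALB/c female 1, a library that stands apart by GC content, 9, 1 and 6 were called in the order above. Over all tested genes, 184, 166 and 199 were called in that setting, in either direction. These comparisons share groups, so their values are given side by side and are not independent. In such mixed samples, fewer cells of a type and less RNA per cell cannot be told apart.

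**Figure D1:**
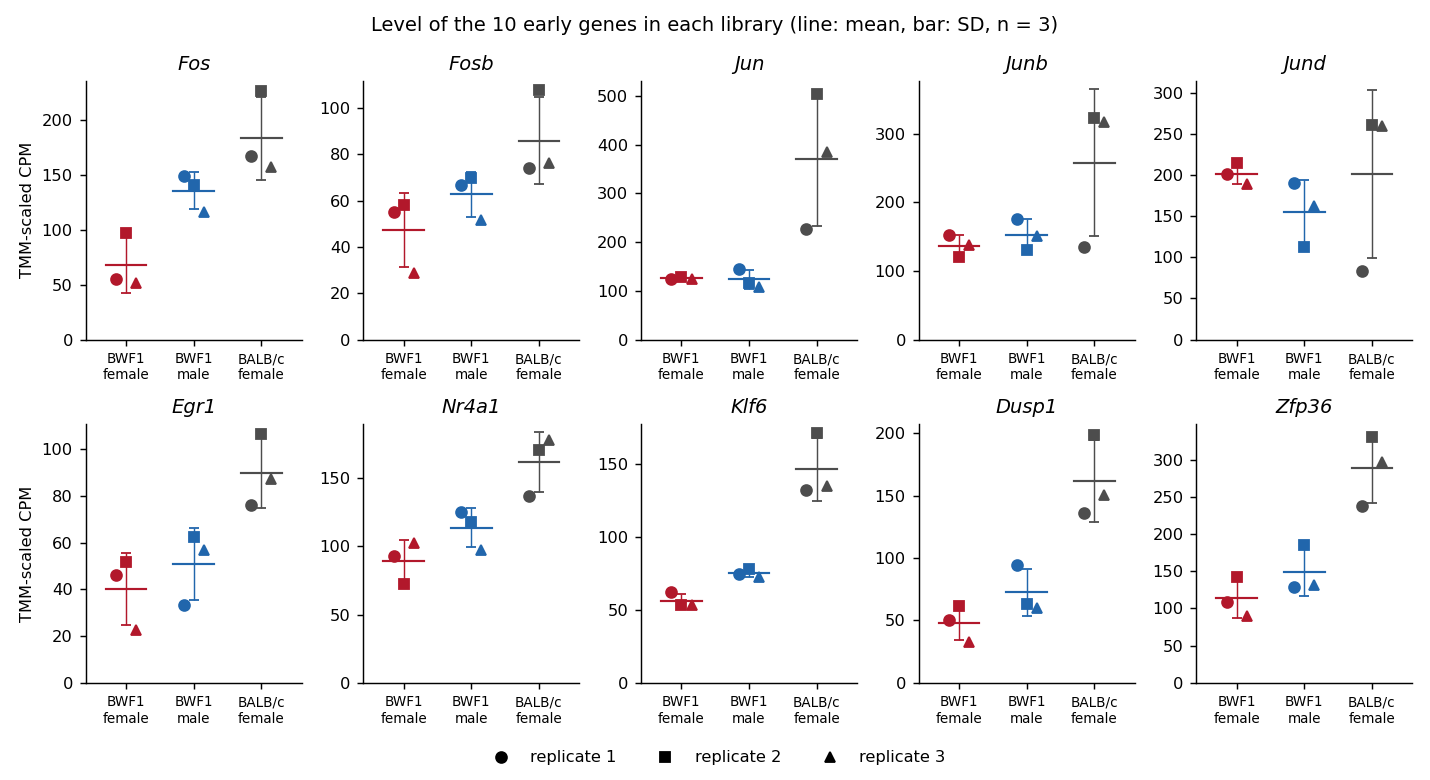
Level of each early gene in each library, in TMM-scaled CPM, by group, with a line at the group mean and a bar for the SD (n = 3). All BALB/c females lie above all BWF1 libraries for 8 of the 10 genes, while for Junb and Jund BALB/c female 1 (135 and 83.4 CPM) lies among or below them.

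Among the AP-1 genes, Fos separated all 3 groups. It stood at 55.1, 96.8 and 51.3 CPM in BWF1 females 1 to 3, at 149, 140.5 and 116 CPM in the males, and at 167, 226 and 157 CPM in BALB/c females. No library of one group overlapped another group, with the BWF1 females lowest. The log2 fold change of BWF1 females against BALB/c females was −1.42 (SE 0.21; edgeR adjusted p = 0.000117). Against BWF1 males it was −0.98 (SE 0.21; edgeR adjusted p = 0.0116), and BWF1 males against BALB/c females gave −0.44 (SE 0.20; edgeR adjusted p = 0.254). The call against males was lost without BWF1 female 1 (edgeR adjusted p = 0.0651) or BWF1 female 3 (edgeR adjusted p = 0.0539). It was also lost with library size only as the scaling (−0.77, edgeR adjusted p = 0.616). Over its 23 alternatives the adjusted p ran from 6.72e-05 to 0.616.

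Fosb encodes a close relative of Fos. It stood at 55.1, 58.1 and 28.7 CPM in BWF1 females, 66.7, 69.7 and 51.85 CPM in the males and 74.0, 108 and 76.3 CPM in BALB/c females. Every BALB/c library lay above every BWF1 library, while the females and males of BWF1 overlapped. It was called in BWF1 females against BALB/c females (log2 difference −0.86 with SE 0.23; edgeR adjusted p = 0.0324), but the call was lost without any of 4 single libraries (BWF1 female 1 or 3, BALB/c female 2 or 3), with edgeR adjusted p up to 0.205 (0.00403 to 0.315 over its 22 alternatives). The call was also lost with DESeq2 (adjusted p = 0.0891), with library size only (edgeR adjusted p = 0.0835) and with the file name tag as a term (edgeR adjusted p = 0.294). The fold change of Fosb was −0.39 (edgeR adjusted p = 0.436) against males and −0.47 (0.285) for males against BALB/c females.

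Jun, whose protein is the classic partner of Fos, was lower in both BWF1 groups than in BALB/c females. It stood at 123.5, 129 and 125 CPM in BWF1 females and at 145, 117 and 108 CPM in BWF1 males, and at 226, 503 and 385 CPM in BALB/c females. The lowest BALB/c library lay above all 6 BWF1 libraries. The log2 fold change against BALB/c females was −1.56 (SE 0.20; edgeR adjusted p = 3.25e-05) in BWF1 females and −1.60 (SE 0.20; edgeR adjusted p = 1.04e-05) in BWF1 males. Between BWF1 females and males it was 0.04 with a 95% interval of −0.38 to 0.46 (edgeR adjusted p = 0.955).

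Junb, which can take the place of Jun in AP-1 and often opposes it, stood at 152, 121 and 138 CPM in BWF1 females, 176.5, 131 and 152 CPM in the males and 135, 323 and 317 CPM in BALB/c females. BALB/c females 2 and 3 lay above all BWF1 libraries, and BALB/c female 1 lay among them. Junb was called lower in BWF1 than in BALB/c females (log2 difference −0.92 with SE 0.22; edgeR adjusted p = 0.0164). The call was lost without BWF1 female 2, BALB/c female 2 or BALB/c female 3 (edgeR adjusted p = 0.0843, 0.119 and 0.12, within 1.8e-05 to 0.23 over its 22 alternatives). DESeq2 (adjusted p = 0.23), limma-voom (adjusted p = 0.0542) and edgeR with robust dispersion (adjusted p = 0.0959) did not call Junb there either. It was not called in BWF1 males against BALB/c females (−0.76, edgeR adjusted p = 0.0526), where it passed without BALB/c female 1 (−1.07, edgeR adjusted p = 0.000383, the lowest of its 22 alternatives, which reached 0.349). Junb shares 173 exon bases with Prdx2 on the opposite strand, so that reads of both cannot be told apart where the counting ignored strand.

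Jund, which is expressed without a stimulus in most cells, was the exception. It stood at 201, 215 and 189 CPM in BWF1 females, 190.3, 113 and 162 CPM in the males and 83.4, 260.2 and 259.7 CPM in BALB/c females. The BALB/c libraries held both the lowest and the highest values of all 9. The log2 fold change of BWF1 females against BALB/c females was 0.00 with a 95% interval of −0.53 to 0.54 (edgeR adjusted p = 0.994), and −0.37 (edgeR adjusted p = 0.369) without BALB/c female 1. Over its 22 alternatives it ran from −0.39 to 0.23, with adjusted p from 0.203 to 0.997. It was 0.38 (SE 0.26; edgeR adjusted p = 0.506) against BWF1 males, and −0.38 (SE 0.26; edgeR adjusted p = 0.514) for males against BALB/c females, which passed without BALB/c female 1 (−0.75, edgeR adjusted p = 0.0256, the lowest of its 22 alternatives, which reached 0.888). The antisense gene Gm11175, which was not in the table, overlaps 877 of its exon bases. Genes on the opposite strand also overlap exon bases of Jun (Junos, 232), Zfp36 (Gm44710, 125) and Dusp1 (Ergic1, 11). The limit on strand given for Junb holds for these genes too.

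**Figure D2:**
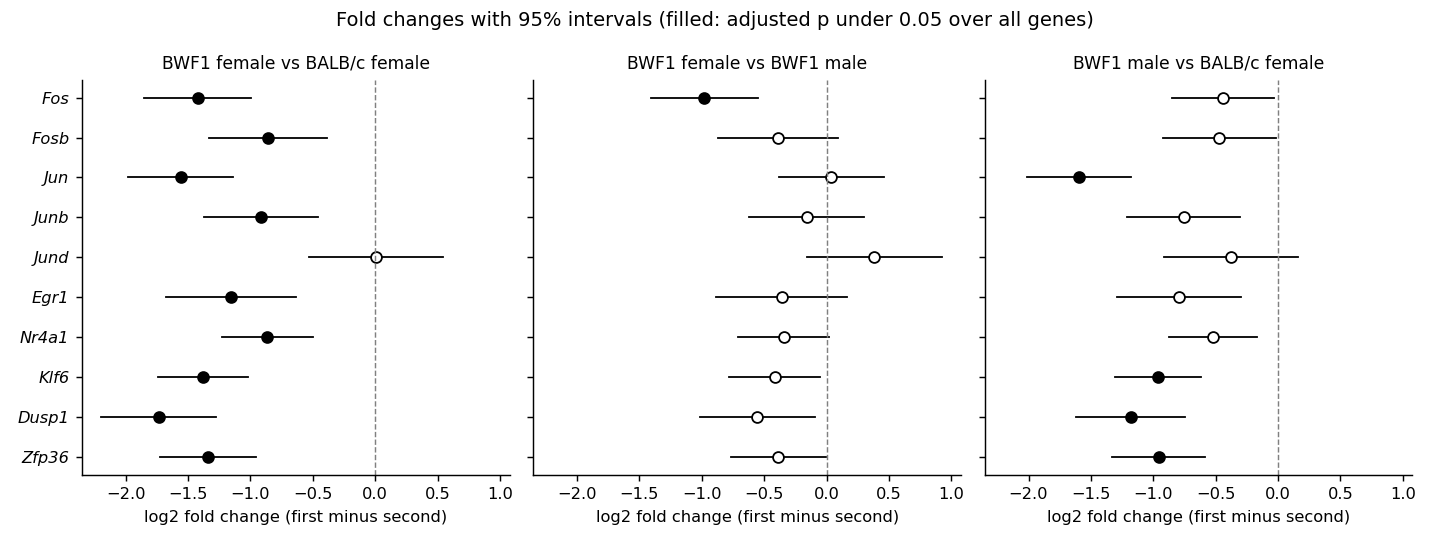
Log2 fold change of each early gene in the 3 comparisons, first group minus second, with 95% intervals from the edgeR fit; filled points have an adjusted p under 0.05 over all 7719 genes. The left panel has 9 genes filled, the middle one only Fos (−0.98), and the right one Jun, Klf6, Dusp1 and Zfp36.

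The AP-1 genes were also compared with each other. Per kilobase of exon, so that genes can be compared, Jund was the highest of the 10 in each group, at 121 ± 7.7 CPM per kb in BWF1 females, 93.0 ± 24 in males and 121 ± 61 in BALB/c females (SD, n = 3). In BALB/c females Jun (117 ± 44) and Junb (112 ± 46) lay within the spread of Jund. In BWF1 females Jun (39.5 ± 0.89) and Junb (59.5 ± 6.8) lay below every Jund value. Fosb was the lowest in all groups, at 7.58 ± 2.6, 10.1 ± 1.5 and 13.8 ± 3.0 CPM per kb.

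Of the summed CPM per kb of the 5 AP-1 genes, Jund held 46.7% to 47.4% in BWF1 females, 29.1% to 38.2% in males and 19.0% to 31.6% in BALB/c females. Jun held 14.9% to 16.45% in BWF1 females, 13.3% to 15.8% in males and 24.5% to 27.8% in BALB/c females. The ratio of Jun to Jund was 0.328 ± 0.017, 0.430 ± 0.10 and 1.07 ± 0.33 in that order (SD, n = 3), with no overlap between any pair of groups. BALB/c females 2 and 3, without the library that stands apart by GC, had ratios of 1.01 and 0.775 and Jund shares of 27.5% and 31.6%. The ratio of Fos to Fosb was 3.94 ± 1.1 in BWF1 females against 5.75 ± 0.35 in males and 5.67 ± 0.28 in BALB/c females. Each pair of groups without overlap gave an exact two-sided permutation p of 0.1, the smallest that 3 against 3 allows, and 0.225 after Benjamini-Hochberg adjustment over 27 tests of shares, sums and ratios. None of the 27 passed. The summed AP-1 level was 256 ± 17, 266 ± 40 and 441 ± 159 CPM per kb and was not separated either, with BALB/c female 1 (262) among the BWF1 values.

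**Figure D3:**
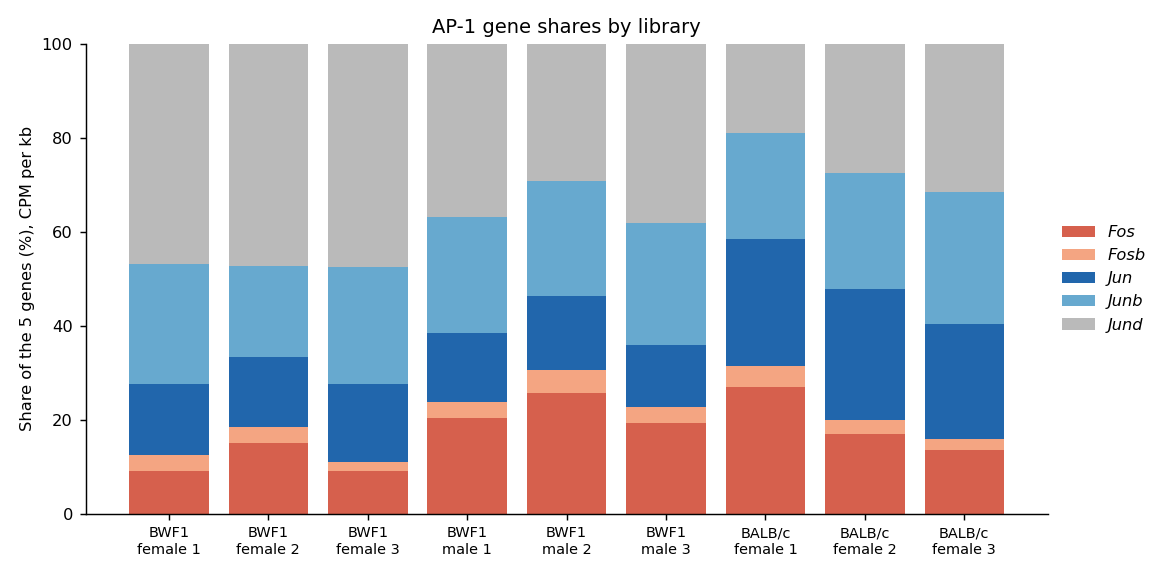
Share of each of the 5 AP-1 genes in their summed CPM per kilobase of exon, one bar per library. Jund takes 46.7% to 47.4% in the BWF1 females and 19.0% to 31.6% in the BALB/c females, while the share of Jun is larger in the BALB/c females (24.5% to 27.8%).

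Outside AP-1, Klf6, a zinc finger factor, had coefficients of variation within groups of 8.69%, 3.81% and 14.8%. In BWF1 females this rests on 26 to 33 counts per library, and Jun (2.26%) and Jund (6.38%) varied less there. Klf6 stood at 61.75, 53.2 and 53.4 CPM in BWF1 females, 74.5, 77.9 and 72.25 CPM in the males and 132, 171 and 135 CPM in BALB/c females. No pair of groups overlapped, and the order was females of BWF1, males of BWF1, BALB/c females. It was called against BALB/c females in BWF1 females (log2 difference −1.38 with SE 0.18; edgeR adjusted p = 2.29e-05) and in males (−0.96, SE 0.17; edgeR adjusted p = 0.000676). Between BWF1 females and males it was −0.42 and not called (SE 0.18; edgeR adjusted p = 0.225).

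Egr1, a zinc finger factor that is a standard readout of ERK signalling, had the lowest single count of the 10, 11 in BWF1 female 3. It stood at 46.3, 51.6 and 22.6 CPM in BWF1 females, 33.3, 62.5 and 56.8 CPM in the males and 76.2, 106.5 and 87.2 CPM in BALB/c females. All BALB/c libraries lay above all BWF1 libraries. It was called in BWF1 females against BALB/c females (log2 difference −1.15 with SE 0.25; edgeR adjusted p = 0.00738), a call lost without BALB/c female 2 (edgeR adjusted p = 0.0517; 3e-05 to 0.148 over its 22 alternatives). With the file name tag as a term the call was also lost (edgeR adjusted p = 0.148). In males Egr1 was at −0.79 (SE 0.24; edgeR adjusted p = 0.0654), and at −0.36 (edgeR adjusted p = 0.522) between BWF1 females and males.

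Nr4a1, the orphan nuclear receptor Nur77 that follows antigen receptor signals in lymphocytes, stood at 92.6, 72.6 and 103 CPM in BWF1 females, 125.5, 118 and 97.7 CPM in the males and 137, 171 and 178 CPM in BALB/c females. BALB/c females lay above both other groups, which overlapped. It was called in BWF1 females against BALB/c females (log2 difference −0.86 with SE 0.18; edgeR adjusted p = 0.00379). It was −0.52 (SE 0.17; edgeR adjusted p = 0.0963) in males and −0.34 (edgeR adjusted p = 0.337) between BWF1 females and males.

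Both feedback genes were lower in each BWF1 group than in BALB/c females. Dusp1, the MAP kinase phosphatase, had the largest fold change of the 10 in BWF1 females. It stood at 50.7, 61.3 and 32.85 CPM there, 94.15, 63.6 and 59.8 CPM in the males and 136, 199 and 151 CPM in BALB/c females. The log2 fold change was −1.74 (SE 0.22; edgeR adjusted p = 2.33e-05) in BWF1 females and −1.18 (SE 0.21; edgeR adjusted p = 0.000949) in males. BWF1 females and males overlapped (−0.55, SE 0.22; edgeR adjusted p = 0.199).

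Zfp36 stood at 108, 142 and 90.3 CPM in BWF1 females, 129.5, 186 and 131 CPM in the males and 238, 330.5 and 297 CPM in BALB/c females. The BALB/c libraries lay above all others, and the BWF1 groups overlapped. It was called in BWF1 females (log2 difference −1.34 with SE 0.19; edgeR adjusted p = 6.14e-05) and in males (−0.96, SE 0.18; edgeR adjusted p = 0.00181) against BALB/c females. Between BWF1 females and males it was −0.39 (edgeR adjusted p = 0.298).

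The libraries of a group moved in part as a block. BALB/c female 2 was the highest of all 9 libraries for 9 of the 10 genes, all but Nr4a1. BALB/c female 1 was the lowest of its group for 9, all but Fos. BWF1 female 3 was the lowest of all 9 for Fos, Fosb, Egr1, Dusp1 and Zfp36. The summed level of the 10 genes was 946, 1000 and 834 CPM in BWF1 females, 1185, 1079 and 1008 CPM in the males and 1405, 2398 and 2043 CPM in BALB/c females. Without BALB/c female 2, 6 of the genes were called in BWF1 females against BALB/c females (Fosb, Junb and Egr1 were lost), and without BALB/c female 3, 7 were called. Over all tested genes, 189 and 194 were called in these settings, in either direction.

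BALB/c female 1 also stood apart by GC content. Over all tested genes, its log2 CPM minus the mean of BALB/c females 2 and 3 had a median of 0.287 in the lowest of 10 equal bins of transcript GC and −0.331 in the highest. Jund (67.1% GC, above 99.9% of tested genes) was lower in that library by 1.62 on the same scale, and Junb (62.6%, above 99.1%) by 1.23. Jun, at 55.5% GC, was lower by 0.95, more than Fosb (56.0%, by 0.29), Nr4a1 (57.0%, by 0.34) or Egr1 (57.3%, by 0.33), which have at least its GC content. The remaining 4 genes were lower by 0.17 to 0.40. With a GC curve per library as an offset, which was added after this pattern was seen, the counts of called early genes were 9, 1 and 5 in the comparisons in the order above. Over all tested genes, 351, 194 and 328 were called with the offset, against 295, 169 and 272 in the main fit. Jund then stood at −0.39 in BWF1 females against BALB/c females (edgeR adjusted p = 0.203). Junb stood at −0.78 in males against BALB/c females and passed (edgeR adjusted p = 0.00588). Against the other libraries of their group, medians from the lowest to the highest bin ran from 0.25 to −0.14 in BWF1 female 2. In BWF1 female 3 they ran from −0.174 to 0.119. Beyond the offset, the part of GC content in the levels of the early genes was not tested.

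**Figure D4:**
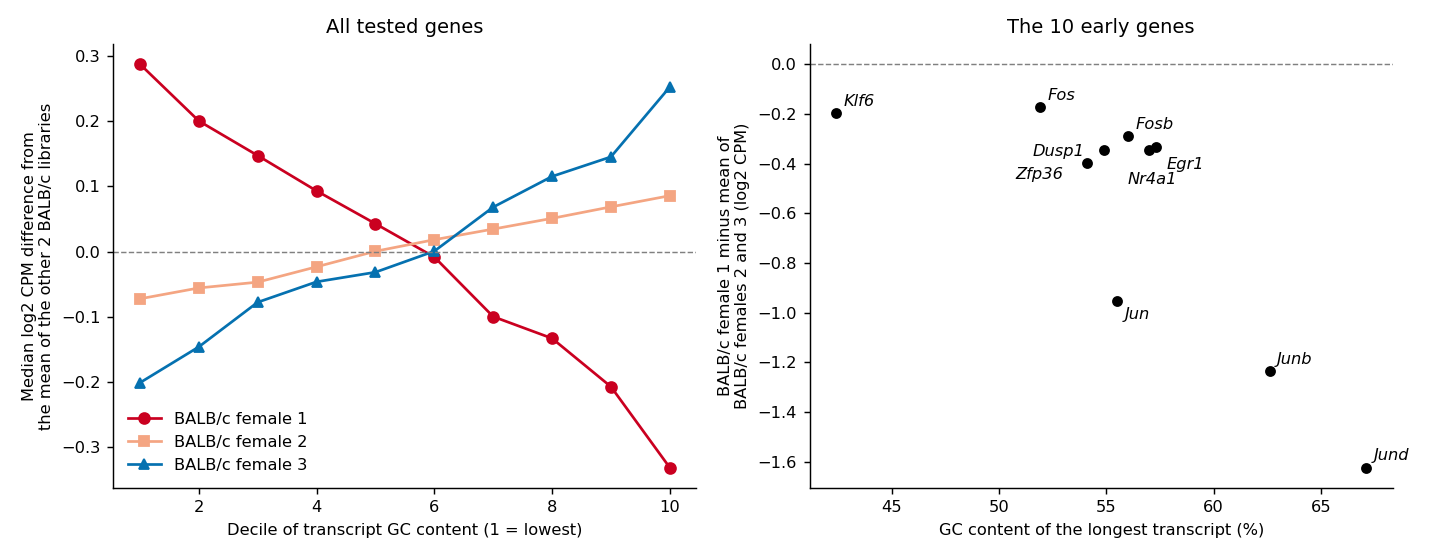
Left, median log2 CPM difference of each BALB/c library from the mean of the other 2, over tested genes in 10 bins of transcript GC content. Right, the difference of BALB/c female 1 from BALB/c females 2 and 3 for each early gene against its transcript GC content, where Jund (−1.62), Junb (−1.23) and Jun (−0.95) lie lowest.

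File names carried a tag, ORIG or RL, whose meaning the labels do not give. All BALB/c libraries, BWF1 female 2 and BWF1 male 2 carried ORIG, so the tag is partly bound to the strain. Within ORIG libraries, where each BWF1 group is 1 library assumed to vary like the others, 7 of the 10 genes were called in BWF1 females against BALB/c females: Fos (−0.90), Jun (−1.51), Junb (−1.07), Nr4a1 (−1.14), Klf6 (−1.44), Dusp1 (−1.38) and Zfp36 (−1.005). Over all genes 254 were called in that setting, 100 of them higher. Fosb (−0.55) and Egr1 (−0.78) were not called there. In males against BALB/c females Zfp36 fell short within ORIG (−0.61, edgeR adjusted p = 0.163; 5.87e-06 to 0.163 over its 22 alternatives). For Fos in BWF1 females against males, the value was −0.54 within ORIG (edgeR adjusted p = 0.519) and −1.33 within RL (edgeR adjusted p = 0.00147).

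Cell type markers also differed between the groups. The 10 B cell markers, all detected in every library, summed to 2353 to 2659 CPM in BWF1 females, 2450 to 3109 in males and 3460 to 3471 in BALB/c females. In BWF1 females against BALB/c females 4 of the 10 B cell markers were called lower, with a median of −0.34, against 2.03% of all tested genes called lower. Called lower there too were 3 of 11 T cell (median −0.53), 2 of 8 monocyte (−0.78) and 2 of 6 neutrophil markers (−0.49). The natural killer cell (−0.655), macrophage (−0.31), erythroid (−0.66) and stromal and endothelial lists (−0.85) each had 1 gene called lower. Plasma cell, dendritic cell and megakaryocyte markers had medians of 0.62, 0.16 and 0.81, with 0 called lower. The 12 macrophage markers, of which Vsig4 had 0 counts in all libraries, summed to 164 to 206.5, 325 to 420.0 and 227 to 250.4 CPM, an order in which the BWF1 males were highest. The 11 T cell markers summed to 374 to 492, 741 to 817 and 490 to 677 CPM. Neutrophil markers, of which 6 of 9 were tested, summed to 152 to 380, 280 to 669 and 316 to 407.5 CPM. Fos was called in BWF1 females against BWF1 males, where 1.23% of all tested genes were called lower. In that comparison 8 of the 11 T cell and 4 of the 7 tested natural killer cell markers were called lower. So were 2 of the 8 tested macrophage and 2 of the 8 monocyte markers. Natural killer cell markers summed to 96.4 ± 9.0 CPM in BWF1 females, 286 ± 9.3 in males and 137 ± 20 in BALB/c females, and monocyte markers to 455 ± 27, 774 ± 49 and 769.5 ± 59 CPM (SD, n = 3). The erythroid markers varied widely within groups, at 837 to 2324, 175 to 1312 and 1414 to 4275 CPM. The part of these differences in the levels of the early genes was not tested.

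Other genes known for rapid induction were listed beside the 10. Of 44, 35 passed the filter on low counts, and 8 were called lower and 0 higher in BWF1 than in BALB/c females (median −0.40 over the 35). The share of all tested genes called lower was 2.03%. DESeq2 and limma-voom each called 4 of the 35 lower and 0 higher. An unadjusted edgeR p under 0.05, in either direction, was found for 18 of the 35 and for 16.9% of all tested genes. Ppp1r15a (GADD34), which reverses the stress block on translation, stood at 39.7, 35.5 and 37.0 CPM in BWF1 females, 54.9, 34.9 and 26.9 in males and 124, 192 and 150 CPM in BALB/c females. Its log2 fold change was −2.05 in each BWF1 group against BALB/c females (edgeR adjusted p = 2.73e-06 in females and 1.08e-06 in males), and 0.00 between BWF1 females and males. Rhob, an early-response small GTPase, was also lower in both BWF1 groups than in BALB/c females (−1.45 in females and −1.38 in males, edgeR adjusted p = 0.000115 and 0.000108), as were the clock gene Per1 (−0.97 and −0.996) and Rgs1 (−1.20 and −1.29), a regulator of G protein signalling in B cells.

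Trib1, a pseudokinase gene, resembled Fos in its calls. It stood at 8.82, 6.45 and 6.16 CPM in BWF1 females, 31.4, 24.6 and 17.5 CPM in males and 23.0, 34.8 and 21.8 CPM in BALB/c females. It was called lower in BWF1 than in BALB/c females (−1.90, edgeR adjusted p = 0.00208) and than in males (−1.71, edgeR adjusted p = 0.0129), on 3 or 4 counts per female library. It was the only one of the 35 called between BWF1 females and males by edgeR, where 8 had an unadjusted p under 0.05. Of all tested genes, 2.19% were called there in either direction and 16.4% had an unadjusted edgeR p under 0.05. A count of 1 among 35 lies near the background. DESeq2 and limma-voom called 0 of the 35. In males against BALB/c females 7 of the 35 were called lower (median −0.21), against 1.85% of all tested genes. The 5 with the lowest p were Ppp1r15a, Rhob, Gadd45g, Per1 and Rgs1. Gadd45g, a stress-response gene, had 0, 0 and 17 counts in the males and 19 to 27 in BALB/c females. Counts of called genes in this list fell to 4 of 35 in BWF1 females against BALB/c females without BWF1 female 1 or BALB/c female 2, to 5 without BALB/c female 1 or 3, and to 3 in males without BALB/c female 2 and 4 without BWF1 male 3. Over all tested genes, 234, 189, 184, 194, 119 and 150 were called in these settings, in the order named.

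No gene of the pathways that switch these genes on was called. Of 24 listed (among them Srf, the Elk factors, Creb1, Crem and the MAP kinase genes), all 24 passed the filter, and edgeR, DESeq2 and limma-voom each called 0 in each comparison. With 3.82%, 2.19% and 3.52% of all tested genes called in either direction, a count of 0 among 24 lies near the background. The number with an unadjusted edgeR p under 0.05 was 3 in BWF1 females against BALB/c females, 2 against BWF1 males and 4 in males against BALB/c females, where 16.9%, 16.4% and 16.3% of all tested genes had one. Elk3, an Ets factor that partners with serum response factor, had the lowest p in BWF1 females. It stood at 25.9 ± 4.3 CPM in BWF1 females, 40.4 ± 10 in males and 40.4 ± 3.6 in BALB/c females (SD, n = 3), with edgeR adjusted p = 0.16 against BALB/c females and 0.162 against males. In males against BALB/c females it was Map2k2 (MEK2), at 64.7 ± 15 against 43.2 ± 5.3 CPM (log2 fold change 0.56, edgeR adjusted p = 0.16). Activity of these kinases and factors lies in their phosphorylation, which RNA counts do not measure.

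Heat shock genes, which respond to protein stress through another factor, Hsf1, gave a partly different order. Of 15, 13 were tested, and 4 were called lower and 0 higher in BWF1 than in BALB/c females by edgeR: Hspa1b (−2.71), Hspa1a (−2.38), Dnajb1 (−1.44) and Hspa8 (−0.79). DESeq2 and limma-voom also called 4 lower and 0 higher, and 8 had an unadjusted edgeR p under 0.05. Of all tested genes, edgeR called 2.03% lower, and 16.9% had an unadjusted edgeR p under 0.05. Hspa1b stood at 97.0, 108 and 82.1 CPM in BWF1 females, 68.7, 42.0 and 39.6 in males and 352, 840.5 and 694 in BALB/c females. Its order thus placed males lowest, unlike that of Fos or Klf6. It was higher in BWF1 females than in males (0.97, edgeR adjusted p = 0.0314), while Hspa8 (−0.88), Hsph1 (−1.17) and Hsp90ab1 (−0.62) were lower there. Those 4 calls fell to 0 without BWF1 male 3, 2 without BWF1 female 1 and 1 without BWF1 female 2, where 58, 142 and 143 of all tested genes were called. The share of all tested genes called there in either direction was 2.19%. In males against BALB/c females, 3.52% of all tested genes were called in either direction. Of the heat shock genes, Hspa1b (−3.69), Hspa1a (−3.23) and Dnajb1 (−1.02) were called lower there and Hsp90ab1 (0.68) higher. The single higher call there fell to 0 without BWF1 male 1 or 3, without any one of the BALB/c libraries, with library size only as the scaling, with the file name tag as a term and within ORIG libraries. Hspa1a and Hspa1b are near-identical neighbours, so reads cannot be assigned to one of them with certainty.

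The genes whose pattern over the 9 libraries was most like the mean of the 10 were Irs2, Tubgcp3, Cd40, H2-Oa and Nemp2, among 4732 candidates with a mean of at least 20 CPM. Likeness was the root mean square difference of log2 CPM, each gene centred on its own mean. It was 0.165 for Irs2, an adaptor of insulin and cytokine receptors, 0.204 for Tubgcp3, 0.215 for Cd40, a costimulatory receptor of B cells and other antigen-presenting cells, 0.219 for H2-Oa and 0.228 for Nemp2. Irs2 had means of 61.6 CPM in BWF1 females, 71.7 in males and 114 in BALB/c females, and Cd40 of 33.6, 36.2 and 61.1 CPM. Of the 10 early genes themselves, Klf6 (0.186) and Zfp36 (0.1995) lay closest to the mean pattern and Jund (0.623) farthest. All of these values come from the same 9 libraries and are descriptions.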

How the data were processed

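RNA of 9 spleen libraries was measured, 3 per group, after ribosomal RNA depletion, per the labels' protocols. The authors deposited raw read counts per gene, as a series table and 1 file per library in the HTSeq format, and the 2 differed in 0 values. The submitters' processing notes name STAR 2.6, FastQC 0.10.1 and the build mm10 but give them no role. The annotation release, feature type and strand setting are not given in the sources used here. Of 21965 identifiers, 21939 matched GENCODE M21, which gave names and coordinates on mm10. Summary lines of the counting were left out of library totals and tests.

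Genes were kept by filterByExpr (minimum count 10), which left 7719 and set aside 14246, and scaled with TMM factors (0.530 to 1.40). A quasi-likelihood model in edgeR 4.0.16 (R 4.3.3) was fitted to all 9 libraries, with Benjamini-Hochberg adjustment over all tested genes and calls at an adjusted p under 0.05. Groups are means ± SD with n = 3. Standard errors are the log2 fold change divided by the square root of F. Shares and ratios were compared by exact permutation tests. The fit was tested on simulated data. Intervals cover the spread in the fit, and reads without molecular identifiers are not independent molecules. Promoters were read from a RefSeq table on GRCm38.p6.

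Groups came from the sample titles. The 10 genes and all lists were chosen with earlier results of these data known. Named from the lists are, per comparison, up to 5 called genes with the lowest p in each direction, or the gene with the lowest p where none was called. The nearest patterns are the 5 genes outside the 10, without predicted genes. Replicate numbers do not pair libraries: same-number correlations ran from −0.0912 to 0.0589, and 0 of 9 pairs exceeded 0.1. Alternatives used DESeq2 1.42.0, limma-voom (limma 3.58.1), other scalings, filters, covariates and single libraries left out.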

Additional observations from a re-analysis of the deposited data

How the results depend on the processing

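In BWF1 females against BALB/c females, Fos, Jun, Klf6, Dusp1 and Zfp36 kept their calls under all 22 alternatives, and 6 to 9 of the 10 early genes were called. Over all genes, 295 were called (138 higher), 169 with DESeq2, 130 (23 higher) with library size only, 160 with the file name tag as a term and 184 to 370 with 1 library left out. Against BWF1 males, 169 genes (74 higher) were called, 92 with DESeq2, 59 (45 higher) with library size only, 304 without a filter, 98 with only those 2 groups, 34 within ORIG, 99 within RL and 58 to 198 with 1 library left out. Of the early genes 1 was called there, 0 with library size only, 0 within ORIG and 0 to 1 with 1 library left out. In BWF1 males against BALB/c females, 272 genes (129 higher) were called, 433 with Lars2 removed first, 510 without a filter, 650 with limma-voom, 153 with the tag as a term and 119 to 393 with 1 library left out. There 4 early genes were called, and 7 with Lars2 removed first or limma-voom, which added Junb, Egr1 and Nr4a1, while the tag as a term ended the call of Zfp36. With library size only, the median gene shifted by −0.29, 0.15 and −0.44 in the 3 comparisons, and 26 of 274 calls were higher in the last. Nr4a1 in BWF1 females against BALB/c females was lost with library size only (edgeR adjusted p = 0.069).

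Signs turned for values near 0. Jund in BWF1 females against BALB/c females was −0.33 with library size only, −0.032 with upper quartile factors, −0.028 with no filter, −0.14 with the tag as a term, −0.39 with the GC offset, and −0.37 to 0.23 with 1 library left out. Between BWF1 females and males, Jun was −0.038 within RL and −0.055 to 0.18 with 1 library left out, and Junb 0.066 with library size only. The causes were not tested beyond these settings. With the replicate block, which rests on numbers that do not pair the libraries, 255, 118 and 240 genes and 9, 1 and 4 early genes were called in the order above. Depth limits the low genes: 3 counts stood at 0.697 to 6.54 CPM of the raw total.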

Other observations

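The following relatives of the 10 genes are named after their values were seen, and differences between them were not tested. Atf3, a stress-induced partner of AP-1, stood at 2.21, 6.45 and 0 CPM in BWF1 females, 15.7, 7.18 and 10.6 CPM in males and 14.4, 11.2 and 19.8 CPM in BALB/c females, and was called lower in BWF1 than in BALB/c females on 0 to 4 counts per library (log2 fold change −2.21, edgeR adjusted p = 0.03). Klf4, a zinc finger factor related to Klf6, was called there as well (−1.58, edgeR adjusted p = 0.021), at 4.41 to 8.07 CPM against 17.2 to 20.8 CPM. The paralogs Egr2 (0.39, edgeR adjusted p = 0.679) and Nr4a3 (0.11, edgeR adjusted p = 0.912) of Egr1 and Nr4a1 were not called in that comparison, with wide 95% intervals of −0.43 to 1.2 and −0.62 to 0.85. Egr3, another paralog of Egr1, was not called either but had a negative value (−0.48, 95% interval −0.95 to −0.017, edgeR adjusted p = 0.276).

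In BWF1 males, Cd69 and Dusp2 were among the 7 of the 35 listed early genes called lower than in BALB/c females. The share of all tested genes called lower there was 1.85%. Of the 35, 8 had positive values, among them Myc (0.38) and Batf (0.62), which were not called. The 7 calls fell to 3 without BALB/c female 2. Cd69, an early surface marker of activated lymphocytes, stood at 11.8, 26.7 and 19.8 CPM in males and 37.4, 44.7 and 43.6 CPM in BALB/c females (log2 fold change −1.06, edgeR adjusted p = 0.0457). Dusp2, a MAP kinase phosphatase related to Dusp1, stood at 43.1, 74.8 and 52.9 CPM in males and 95.6, 114 and 115 CPM in BALB/c females (−0.91, edgeR adjusted p = 0.0168). In BWF1 females neither was called against BALB/c females (Cd69 −0.83, edgeR adjusted p = 0.16; Dusp2 −0.49, edgeR adjusted p = 0.261). The BWF1 groups were not called different from each other (females minus males, Cd69 0.23, edgeR adjusted p = 0.794; Dusp2 0.42, edgeR adjusted p = 0.368).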
